A study of Homo sapiens with 3 samples.

Results

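The Notch pathway was followed through 10 genes in 3 KYSE30 lines: the receptors NOTCH1, NOTCH2 and NOTCH3, the ligands JAG1, JAG2 and DLL1, the nuclear coactivator MAML2, and the target genes HES1, HES4 and HEY1. They are the rows of the count table whose identifiers map to these 10 symbols, and all 10 were found among the 60554 genes of the table. KYSE30 is an established human line from esophageal squamous cell carcinoma. The series asked what differs when SNORD12B, a small nucleolar RNA of the box C/D class, is depleted by shRNA. The control line carries the label vector, while its protocol names a scrambled shRNA without a mammalian target; the other lines each carry a different shRNA to SNORD12B in pLKO.1-blast. All 3 lines were grown in 10% serum, exposed to virus for 24 hours and kept in 5 ug/mL blasticidin for 2 weeks. The labels do not say whether a line was a pool or 1 clone, and each line gave 1 library. A difference between libraries is therefore set against counting error alone, or against a spread estimated from the shRNA lines and from all other genes.

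Notch receptors are single-pass membrane proteins that are bound by Jagged and Delta-like ligands on neighbouring cells. Binding opens the receptor to an ADAM protease and then to gamma-secretase, which frees the intracellular domain to enter the nucleus. There it joins the DNA-binding protein RBPJ and a Mastermind coactivator at targets such as the HES and HEY genes, which encode basic helix-loop-helix repressors. In squamous epithelium of the esophagus and skin, Notch signalling is known for its part in leaving the basal layer and differentiating.

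The library totals lay between 15146805 and 17336936 counts, and 17801 genes passed a filter on low counts, among them all 10 Notch genes. SNORD12B itself had 7, 15 and 1 counts in the order control, label shRNA 1, label shRNA 2. Scaled and divided by the control, this gave 2.16 (0.831 to 6.28, 95% exact interval) under the label shRNA 1 and 0.126 (0.0028 to 0.982) under the label shRNA 2. The first has a point value above 1, opposite to its label, but its interval includes 1. So few counts do not show whether SNORD12B was lower or higher there than in the control. The second lies below 1, from 1 count. A direction drawn from the library labelled shRNA 1 thus has no depletion of SNORD12B behind it in these counts, which do not show its absence either. Of 9 markers of squamous epithelium fixed for the label check, 8 reached 1 CPM (the count scaled to library size) in every library, and KRT5, a defining basal keratin, had only 1, 3 and 2 counts. The 6 markers of simple epithelium all exceeded 1 CPM. Markers of other cells were scarce: 1 of 7 for fibroblasts (COL1A1) and 1 of 6 for immune cells (CD68) reached 1 CPM in each library, the 5 endothelial markers summed to 0.921 to 5.81 CPM, and COL1A2, PDGFRA, DCN, LUM, KDR, TEK and CD3D had no count.

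The promoters of HES1 and HES4 are shown first because they carry the letters that RBPJ is known to bind, and both genes were counted well in every line. The stretches run from 150 to 51 bases before the RefSeq start of each gene (GRCh38.p14), at chr3:194135998-194136097 on the plus strand for HES1 and chr1:1000148-1000247 on the minus strand for HES4. Capitals mark TGGGAA.
HES1: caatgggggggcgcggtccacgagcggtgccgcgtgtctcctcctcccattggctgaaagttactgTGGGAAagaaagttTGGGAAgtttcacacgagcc
HES4: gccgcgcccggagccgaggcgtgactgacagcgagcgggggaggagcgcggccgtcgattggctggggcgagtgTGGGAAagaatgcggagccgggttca
HES1 held 2 matches, which begin 84 and 70 bases before the RefSeq start, and HES4 held 1, which begins 76 bases before its RefSeq start. The HES4 gene as counted begins further upstream, at 1000172 inside the printed stretch, so its match lies much closer to that start. The matches at 84 in HES1 and at 76 in HES4 sit inside the longer GTGGGAA. Among 35116 RefSeq windows of 300 bases (250 before to 50 after a start), searched on both strands as TGGGAA or TTCCCA, 24% held at least 1 match and 3.8% held 2 or more. The longer GTGGGAA or TTCCCAC was held by 6.25%. Windows were searched for 8 of the 10 genes; those of NOTCH1, NOTCH2, NOTCH3, JAG1, JAG2 and MAML2 held no match, which says only that these letters are not in the window. DLL1 and HEY1 had no window in the table used. The N box, to which HES proteins are known to bind, was searched as CACNAG on both strands and was found in 5 of the 8 windows against 38% of all windows, with 4 matches in HES1.

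Among the receptors, NOTCH3 and NOTCH1 were below the control in both shRNA lines, NOTCH3 most so with the label shRNA 1, and NOTCH2 was nearly level. The NOTCH3 gene (ENSG00000074181.8, chromosome 19, 15159038 to 15200981, minus strand, hg38) had 1352 counts in the control (88 CPM), 356 under the label shRNA 1 (23.4 CPM) and 1265 under the label shRNA 2 (72.7 CPM). The shRNA pair averaged 48.1 ± 34.9 CPM (SD, n = 2). The low value belonged to the label shRNA 1, and the 95% exact Poisson intervals of the 3 libraries did not overlap. The scaled count was 0.266 of the control (0.236 to 0.299, 95% exact interval) under the label shRNA 1 and 0.826 (0.765 to 0.893) under the label shRNA 2. These intervals, like all that follow, cover counting error only. The log2 ratio of -1.90 for the label shRNA 1 was reached or undercut by 1.22% of the 17801 tested genes, and that of -0.27 for the label shRNA 2 by 24.4%.

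NOTCH1 (ENSG00000148400.9, chromosome 9, 136494444 to 136545862, minus strand), the receptor most often studied in squamous epithelium, had 88.9 CPM in the control, 56.9 CPM under the label shRNA 1 and 68.6 CPM under the label shRNA 2. Both shRNA libraries were lower than the control, with ratios of 0.64 (0.587 to 0.698) and 0.773 (0.714 to 0.836). NOTCH2 (ENSG00000134250.17, chromosome 1, 119911553 to 120069626, minus strand) stood at 140.2, 137 and 137 CPM in the order control, label shRNA 1, label shRNA 2. Its ratios of 0.976 (0.918 to 1.04) and 0.975 (0.919 to 1.03) both had intervals that include 1. NOTCH2 has near-identical partial copies, of which NOTCH2NLA had 17, 16 and 22 counts, and reads shared with such copies make its level uncertain. For the pair of shRNA lines against the control, the log2 fold change was -0.87 (SE 0.54) for NOTCH3, -0.50 (SE 0.32) for NOTCH1 and -0.04 (SE 0.30) for NOTCH2, each with adjusted p = 1 (edgeR, quasi-likelihood). The SE is worked back from that test's F statistic. Leaving out the library labelled shRNA 1 moves NOTCH3 to -0.27, and leaving out the library labelled shRNA 2 moves it to -1.90.

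Of the members below the control beyond counting error in both shRNA lines, JAG1 alone showed no difference beyond it between those lines. JAG1 (ENSG00000101384.11, chromosome 20, 10637684 to 10674107, minus strand), a ligand with a Jagged-type extracellular domain, had 2844 counts in the control (185 CPM), 1842 under the label shRNA 1 (121 CPM) and 2021 under the label shRNA 2 (116 CPM). The pair averaged 119 ± 3.49 CPM (SD, n = 2), and the control lay above both. The ratio was 0.654 (0.617 to 0.694) for the label shRNA 1 and 0.628 (0.593 to 0.665) for the label shRNA 2. Between the shRNA lines it was 0.959 (0.9 to 1.02), an interval that includes 1. Relative to the control, 12.1% of tested genes were as low as JAG1 or lower under the label shRNA 1. Under the label shRNA 2 this share was 7.93%. The log2 fold change of the pair was -0.64 (SE 0.30), with adjusted p = 1 (edgeR, quasi-likelihood). An antisense gene, ENSG00000270792, overlaps 0.93% of the exonic bases of JAG1 and had 169, 74 and 106 counts in the same order, so that little of the count of JAG1 can be shared with it by position.

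JAG2, the other Jagged ligand (ENSG00000184916.8, chromosome 14, 105140981 to 105168824, minus strand), stood at 83.3, 66.6 and 59.4 CPM in the order control, label shRNA 1, label shRNA 2. It too was lower in both shRNA libraries, with ratios of 0.799 (0.735 to 0.869) and 0.713 (0.657 to 0.775). DLL1 (ENSG00000198719.8, chromosome 6, 170282206 to 170306565, minus strand), a Delta-like ligand, stood at 9.63, 8.81 and 9.14 CPM, from 148, 134 and 159 counts. Its 3 values overlapped within counting error, with ratios of 0.915 (0.718 to 1.16) and 0.949 (0.754 to 1.2). A difference of DLL1 was thus not detectable at this depth. The log2 fold changes were -0.40 (SE 0.32) for JAG2 and -0.10 (SE 0.42) for DLL1, with adjusted p = 1 for each by edgeR.

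**Figure D1:**
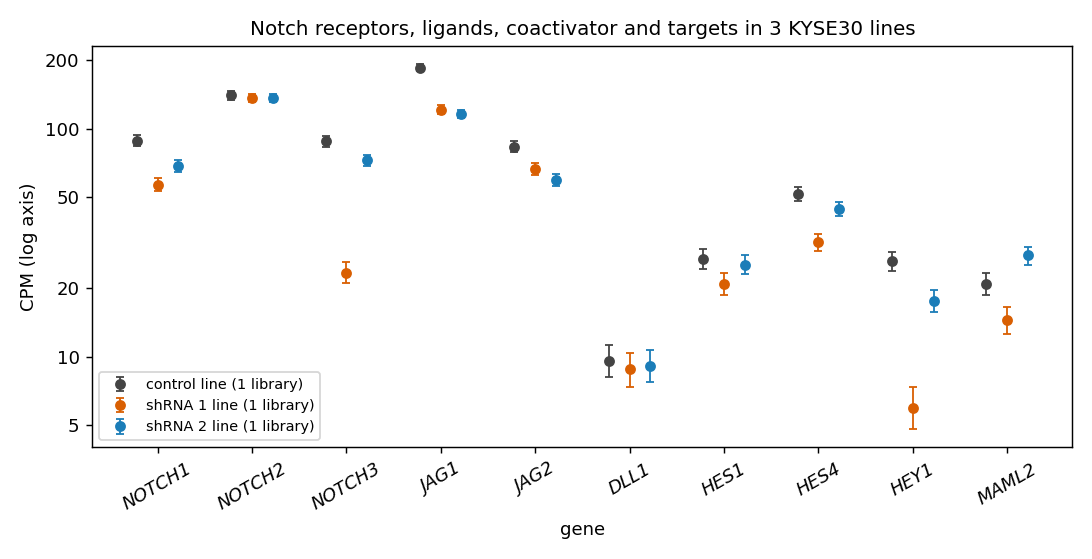
CPM of the 10 Notch genes (log axis) in the control line (grey) and the lines labelled shRNA 1 (orange) and shRNA 2 (blue), 1 library each; bars are 95% exact Poisson intervals for counting error. NOTCH3 (23.4 CPM) and HEY1 (5.98 CPM) of the library labelled shRNA 1 lie far below the other libraries, while NOTCH2 and DLL1 overlap in all 3.

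Of the target genes, HEY1 differed most. HEY1 (ENSG00000164683.16, chromosome 8, 79764010 to 79767863, minus strand), a hairy-related repressor, had 403 counts in the control (26.2 CPM), 91 under the label shRNA 1 (5.98 CPM) and 306 under the label shRNA 2 (17.6 CPM). The shRNA pair averaged 11.8 ± 8.21 CPM (SD, n = 2). No intervals overlapped, and the order of the libraries was the same as for NOTCH3. As a ratio to the control this is 0.228 (0.18 to 0.287) and 0.671 (0.576 to 0.78), in the same order. Its log2 ratio of -2.11 for the label shRNA 1 was reached or undercut by 0.91% of tested genes, and that of -0.57 for the label shRNA 2 by 10.3%. The fold change of the pair was -1.15 on the log2 scale (SE 0.55), with adjusted p = 1 (edgeR, quasi-likelihood). Without the library labelled shRNA 1 the log2 value is -0.57, and without the library labelled shRNA 2 it is -2.11.

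HES4 (ENSG00000188290.10, chromosome 1, 998962 to 1000172, minus strand) stood at 51.8, 31.8 and 44.6 CPM in the order control, label shRNA 1, label shRNA 2. The library labelled shRNA 1 was again lowest, with a ratio of 0.613 (0.546 to 0.687), and the label shRNA 2 gave 0.86 (0.778 to 0.95). HES1 (ENSG00000114315.3, chromosome 3, 194136145 to 194138732, plus strand), the hairy-related repressor whose promoter above holds the pair of TGGGAA matches, stood at 26.9, 20.8 and 25.4 CPM from 413, 317 and 441 counts. Only the library labelled shRNA 1 had a ratio whose interval excludes 1, at 0.775 (0.668 to 0.9), against 0.943 (0.823 to 1.08) for the label shRNA 2. The log2 fold changes of the pair were -0.44 (SE 0.36) for HES4 and -0.22 (SE 0.36) for HES1, with adjusted p = 1 for each by edgeR.

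MAML2 was the only one of the 10 on opposite sides of the control in the shRNA lines, as were 44.8% of all tested genes. This coactivator of the RBPJ complex (ENSG00000184384.13, chromosome 11, 95976598 to 96343180, minus strand) had 322 counts in the control (21 CPM), 220 under the label shRNA 1 (14.5 CPM) and 484 under the label shRNA 2 (27.8 CPM). The ratios were 0.69 (0.579 to 0.822) and 1.33 (1.15 to 1.53), and the library labelled shRNA 2 had 1.92 times the level of the library labelled shRNA 1 (1.64 to 2.27). The log2 fold change of the pair was 0.01 (SE 0.45), a mean over values of opposite sign, and it turned to -0.05 with limma-voom. MIR1260B, on the opposite strand, overlaps 1.52% of the exonic bases of MAML2 and had 15, 8 and 26 counts.

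**Figure D2:**
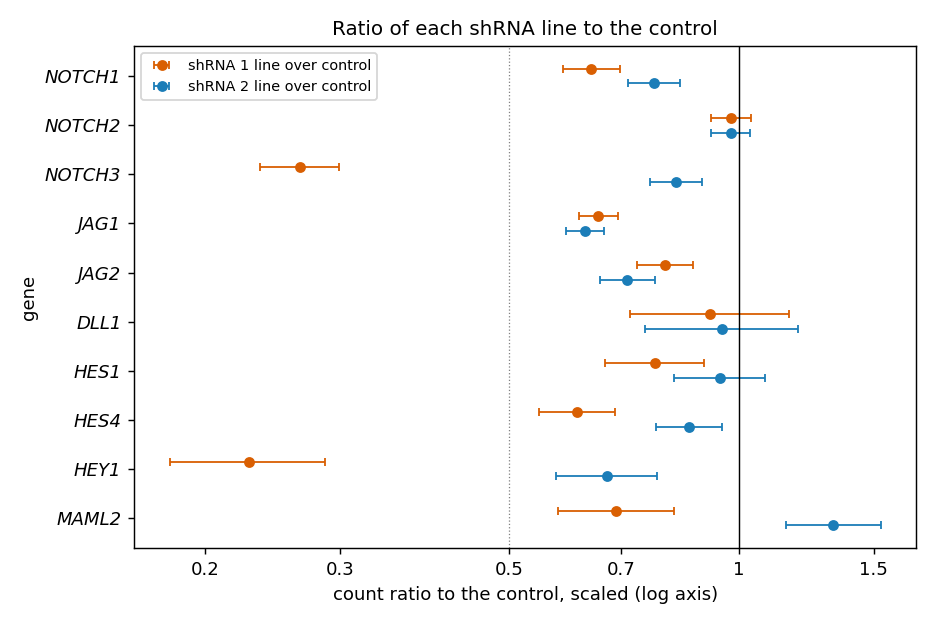
Scaled count ratio of each shRNA line to the control (log axis) for the 10 Notch genes, with orange for the label shRNA 1 and blue for the label shRNA 2; bars are 95% exact conditional intervals for counting error, the solid line marks 1 and the dotted line 0.5. All 10 orange points lie below 1, 9 blue points do, and NOTCH3 and HEY1 alone pass the dotted line, with the label shRNA 1.

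Counted together, 10 of 10 genes lay below the control with the label shRNA 1, where 48.5% of all tested genes did and 51.5% lay above it. With the label shRNA 2, 9 of 10 lay below (50.3% of tested genes) and MAML2 above (49.7%). The 9 genes below the control in both libraries compare with 27% of tested genes, and 0 lay above it in both, where 28.2% of tested genes did. All of these ratios share the 1 control library. Of the 10 genes, 8 had a count ratio whose interval lay below 1 with the label shRNA 1 (background 24.1%), and 6 with the label shRNA 2 (background 24.2%), a rule that well-counted genes meet more easily. Intervals above 1 were held by 0 with the label shRNA 1 (background 25.6%) and by MAML2 with the label shRNA 2 (23.3%). At least 2-fold lower were 2 of 10 with the label shRNA 1 (NOTCH3 and HEY1; 5.58% of tested genes) and 0 with the label shRNA 2 (3.46%), while 0 were at least 2-fold higher with either label (3.74% and 2.98%). NOTCH3 and HEY1 were within 2-fold of the control with the label shRNA 2, a pairing that 4.31% of tested genes showed. The median log2 ratio of the 10 was -0.57 and -0.25 for the labels shRNA 1 and shRNA 2, against 0.01 and -0.00 over all tested genes. These genes were listed with earlier results of the same data known, so the counts describe them and are no independent evidence.

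None of the 10 passed edgeR's quasi-likelihood test over all genes, which called 0 genes in either direction (0% higher and 0% lower of 17801). At an unadjusted p under 0.05 it had 73 higher genes and 164 lower ones (0.41% and 0.921%), none of the 10 among them. Other tools made few calls, none of them among the 10: 1 gene lower by limma-voom, 1 higher and 14 lower by DESeq2, and 2 higher and 36 lower by the likelihood ratio test of edgeR. The test has 1 residual degree of freedom, the difference between the shRNA lines, and takes most of its error from the dispersion of all genes (8.35 prior degrees of freedom). The SE was 0.54 for NOTCH3 and 0.55 for HEY1, against 0.30 for NOTCH2, which was level between those lines. A missed threshold thus does not show that the levels were alike.

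The shRNA lines also differed from each other. The library labelled shRNA 2 had 3.11 times the NOTCH3 level of the library labelled shRNA 1 (2.76 to 3.5) and 2.94 times its HEY1 level (2.32 to 3.76). These were the 2 of the 10 that stood at least 2-fold higher with the label shRNA 2 than with the label shRNA 1, as did 6.61% of tested genes, and 0 stood at least 2-fold lower (5.54%). Of the 10, 7 were higher with the label shRNA 2 than with the label shRNA 1 (49.9% of tested genes) and 3 lower (50.1%). The interval of that ratio lay above 1 for 6 (28.1%) and below 1 for JAG2 alone (28.4%). The library labelled shRNA 1 was the lowest of the 3 for 7 of the 10, a place it held for 36.7% of tested genes. JAG1, JAG2 and NOTCH2 were the exceptions. With 1 library a line, the difference between the shRNA lines has no test.

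Compared per length, as TPM (counts per exonic length, scaled to the same sum in each library), HES4 was the highest of the 10 in the control at 137 TPM (128 to 147) and JAG1 came next at 64.3 TPM (61.9 to 66.7). HES1 at 38.6 TPM (35 to 42.5) and JAG2 at 38.6 TPM (36.5 to 40.8) did not differ beyond counting error. NOTCH3 at 27.8 TPM (26.3 to 29.3) and NOTCH1 at 26.6 TPM (25.3 to 28.1) overlapped, as did NOTCH1 with NOTCH2 at 24.7 TPM (23.7 to 25.8) and NOTCH2 with HEY1 at 24.1 TPM (21.8 to 26.5). DLL1 at 8.85 TPM and MAML2 at 8.74 TPM were lowest and overlapped. HES4 and JAG1 were also first and second in each shRNA line, though JAG1 at 41.5 TPM and HES1 at 37.5 TPM overlapped with the label shRNA 2. HEY1 was lowest of all with the label shRNA 1, at 5.72 TPM (4.6 to 7.02), an interval that overlaps that of MAML2 at 6.28 TPM (5.48 to 7.17).

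The makeup of the receptor RNA differed between the libraries. NOTCH3 gave 35% of the summed TPM of the receptors NOTCH1 to NOTCH4 in the control line, 15.1% under the label shRNA 1 and 33.8% under the label shRNA 2. NOTCH2 gave 31.2%, 49.5% and 35.5% in the same order, while the sum itself was 79.3, 50.8 and 69.9 TPM. NOTCH2 thus made up the greatest share in both shRNA libraries, though with the label shRNA 2 its TPM overlapped that of NOTCH3 within counting error. With the label shRNA 1 NOTCH2 stood at 25.1 TPM, against 24.7 TPM in the control. Among the HES and HEY genes, HES4 made up 62.4%, 61.8% and 62.2% of the summed TPM, while HEY1 made up 10.9%, 4.03% and 8.5%. Per length, HEY1 stood at 0.623 times HES1 in the control, 0.183 times with the label shRNA 1 and 0.443 times with the label shRNA 2. JAG1 gave 48.8%, 43.7% and 42.3% of the ligand TPM. That sum covers JAG1, JAG2, DLL1, DLL3, DLL4, DLK1 and DLK2, of which DLK2 gave 13%, 10.3% and 17.8%.

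**Figure D3:**
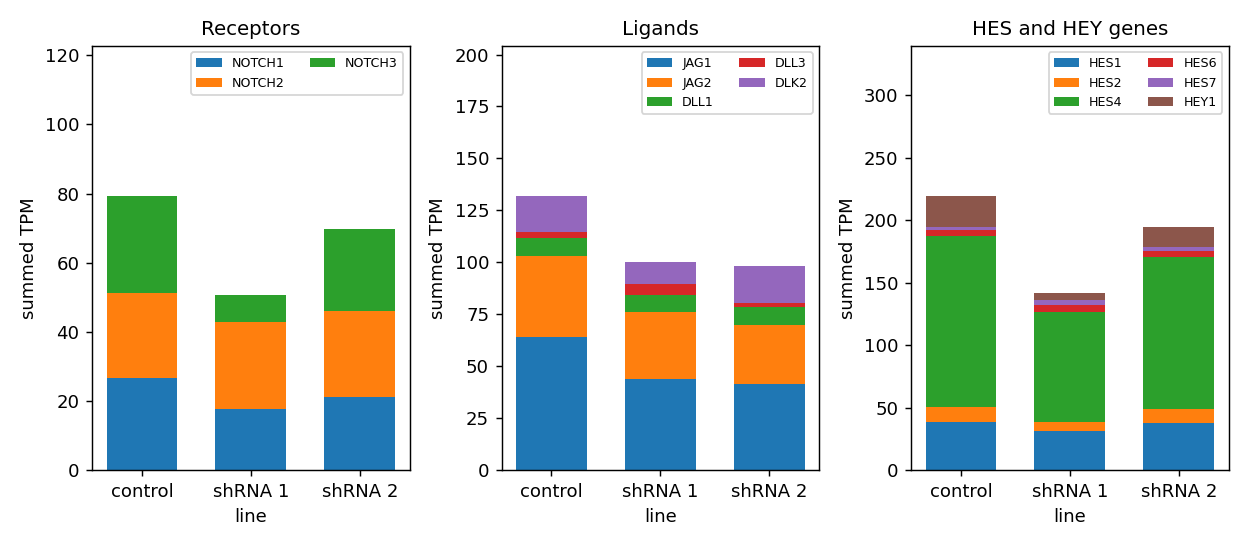
Summed TPM of Notch receptors, ligands, and HES and HEY genes in each line (1 library a line), stacked by gene; genes under 1 TPM in every library are left out. The NOTCH3 and HEY1 segments are thinnest with the label shRNA 1, at 7.7 and 5.72 TPM, and HES4 forms most of the third stack in every line.

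Of the 10, HEY1 had the pair of log2 ratios farthest from 0. Over the 3 libraries, the genes nearest to it by Euclidean distance among 8167 with at least 20 CPM on average were ID4 (distance 0.25), NOTCH3 (0.36) and FAT2 (0.37). ID4, which encodes a helix-loop-helix protein without a DNA-binding region, stood at 31.3, 8.48 and 20.2 CPM in the order control, label shRNA 1, label shRNA 2. FAT2, which encodes a large atypical cadherin, stood at 44.3, 12.6 and 34.6 CPM. Likeness over 3 libraries that share 1 control is a description of these libraries.

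The summed level of the squamous markers had the same order of libraries as HEY1 and NOTCH3, as did KRT17, TP63, SOX2 and DSC3, whereas KRT5, KRT14, KRT15, KRT6A and DSG3 did not. Over the 9 markers it stood at 733, 324 and 500.3 CPM in the order control, label shRNA 1, label shRNA 2, with SOX2 at 104, 12.2 and 38.9 CPM and TP63, a basal transcription factor, at 157, 80.6 and 135 CPM. The 6 markers of simple epithelium stood at 8886, 8096 and 9837 CPM. Their part in the Notch gene values was not tested, and in bulk libraries fewer cells of a type cannot be told apart from less RNA per cell.

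Other genes of the pathway lay on either side of the control. Of 55 further genes on a list of Notch pathway components, 48 passed the filter on low counts; 12 of these lay above the control in both shRNA lines, 11 below it in both and 25 on opposite sides, where 28.2%, 27% and 44.8% of all tested genes did. The median of their log2 ratios to the control was -0.06 for the label shRNA 1 and 0.07 for the label shRNA 2. In edgeR's quasi-likelihood test 0 of the 48 passed in either direction, and 0 had an unadjusted p under 0.05.

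Among further genes of the list, NRARP, an ankyrin-repeat protein that restrains Notch signalling, had 18.3 CPM in the control and 10.6 CPM under either shRNA label. Its log2 ratio was -0.78 with both labels, which 8.32% and 5.77% of tested genes reached or undercut. HES2 stood at 21.5, 13.3 and 20.8 CPM in the order control, label shRNA 1, label shRNA 2, so it was lowest in the same library as HES1, HES4 and HEY1. HES6 (3.06, 3.75 and 3.1 CPM) and HES7 (1.82, 2.37 and 1.84 CPM) did not differ from the control beyond counting error, from at most 57 counts. Their ratios all had intervals that include 1. The RefSeq windows of NRARP, HES2, HES6 and HES7 held no TGGGAA, while those of HES5, HEYL and HEY2 held 2 each.

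Of the genes that act before the nucleus, ADAM10 and MIB1 stood above the control in both lines. ADAM10, the protease that makes the ligand-dependent cut, stood at 138, 192 and 221 CPM in the order control, label shRNA 1, label shRNA 2, and MIB1, the ubiquitin ligase that activates ligands, at 82.5, 117 and 131 CPM. ITCH, a ubiquitin ligase that targets Notch, was also higher in both, at 227, 262 and 302 CPM. The related protease ADAM17 was lower in both, at 92.4, 68.3 and 82.2 CPM, but shares 24.09% of its exonic bases with IAH1 on the opposite strand, so its count is uncertain where the library kept no strand. Of the 9 protease and gamma-secretase genes tested, 2 were above in both, 2 below in both and 5 on opposite sides, where 28.2%, 27% and 44.8% of all tested genes were. Besides ADAM10 and ADAM17, the other gene above in both and the other below in both had intervals that include 1 with the label shRNA 1.

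In the nuclear complex, RBPJ itself stood at 54.4, 72.9 and 57.4 CPM, the acetyltransferase gene CREBBP at 124, 153 and 174 CPM and the cofactor SNW1 at 67.7, 85.6 and 77.2 CPM in the order control, label shRNA 1, label shRNA 2. All 3 were above the control in both lines, unlike MAML2. MAML1 and MAML3, the other Mastermind genes, were below it in both, at 125, 118 and 109.8 CPM and at 3.58, 2.96 and 3.28 CPM. The corepressor TLE4 was below in both, at 19.1, 12 and 16.7 CPM. Several of these ratios had intervals that include 1, so their side of the control is not set beyond counting error. With the label shRNA 2 these were RBPJ (0.962 to 1.16) and TLE4 (0.741 to 1.03). With the label shRNA 1 it was MAML1 (0.879 to 1.001), and with both labels MAML3 (0.545 to 1.25 and 0.621 to 1.35). RBPJ, MAML1 and MAML3 fall outside the rule for named genes and were added after their values were seen.

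The 4 other pathway genes that differed most between the shRNA lines were named by that rule, so their difference is a description. The corepressor gene TLE2 stood at 7.23, 3.22 and 8.91 CPM in the order control, label shRNA 1, label shRNA 2. DTX4, a Deltex ubiquitin ligase, stood at 10.8, 10.4 and 26.8 CPM, NEURL1B, a Neuralized ligase, at 24.2, 19 and 48 CPM, and DTX3L, a Deltex relative, at 125, 99.4 and 195 CPM. In each of these 4 the point value was highest with the label shRNA 2 and lowest with the label shRNA 1, as for MAML2. Unlike for MAML2, 1 ratio to the control had an interval that includes 1 for DTX4 and for TLE2. For DTX4 it was that of the label shRNA 1, at 0.961 (0.768 to 1.2). For TLE2 it was that of the label shRNA 2, at 1.23 (0.96 to 1.59). NEURL1B and DTX3L overlap other genes on the opposite strand on 5.96% and 3.7% of their exonic bases.

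**Figure D4:**
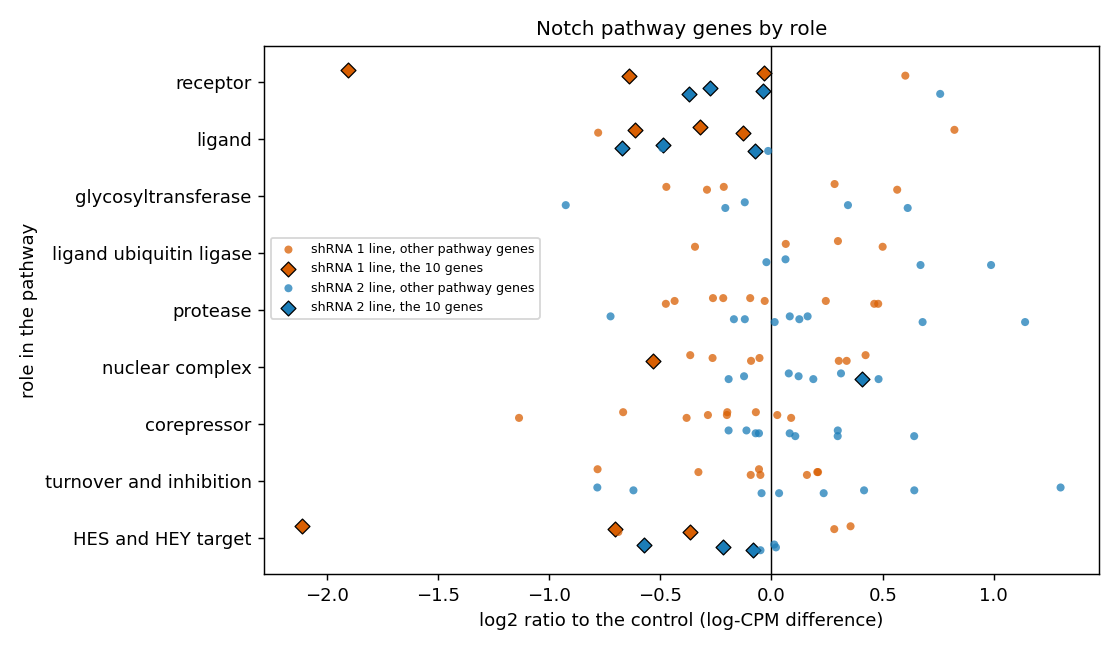
Log2 ratio to the control (difference of log-CPM, 1 library a line) of the 10 Notch genes (diamonds) and the 48 other tested pathway genes (circles), by role, with orange for the label shRNA 1 and blue for the label shRNA 2. Diamonds lie left of 0 except MAML2 with the label shRNA 2, at 0.41, while circles lie on either side.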

How the data were processed

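RNA of 3 KYSE30 lines was sequenced, with 1 library a line. The authors deposited raw gene counts, made with featureCounts 1.6.4 on an hg38 annotation with the strand option 1 and no paired-end option, per the file headers. The submitters' processing notes name TopHat2, HTSeq and hg19 instead. The exonic length is another deposited column and was used for TPM. Coordinates are on hg38: 52179 versioned identifiers also occur in GENCODE 29, and all 52179 have equal coordinates. Names matched 56558 of 60554 genes. Which library kit was used, and whether it kept strand, is not given here.

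Counts were scaled by TMM and tested in R 4.3.3 with edgeR 4.0.16 (quasi-likelihood F test, two-sided, filterByExpr, Benjamini-Hochberg over 17801 genes, threshold 0.05); limma 3.58.1 and DESeq2 1.42.0 served as alternatives. No replicate cultures are named, so p-values rest on the difference between the 2 shRNA lines (1 residual degree of freedom) and on dispersion shared over genes (8.35 prior degrees of freedom), not on replicates of a line. Log2 ratios of single libraries are differences of log-CPM (prior count 2). Poisson and conditional intervals are exact, at 95%. On data simulated for the knockdown comparison (5 draws, about 17324 genes), 76.6% of 4-fold and 99.8% of 16-fold changes were recovered, with 9.8 false calls a draw. Each gene was drawn with the dispersion of a trend over all genes, so spread particular to a gene was left out and recovery in real data can be lower. Only genes with at least 5 CPM on average were changed, by the same fold in both shRNA libraries. The figures thus do not give the recovery of genes that differed between those lines, such as HEY1 and NOTCH3.

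The members and lists were chosen with earlier results of these data known. Other pathway genes named are the 8 with at least 5 CPM and the largest smaller ratio on 1 side in both lines, the 4 differing most between lines, and HES, HEY or NRARP genes with at least 1 CPM; likeness was taken for the member farthest from 0. Alternatives covered scaling, filter, test, prior count and leaving out a line. Promoter windows are from RefSeq, GRCh38.p14, for 8 of the 10 genes.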

Additional observations from a re-analysis of the deposited data

How the results depend on the processing

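Across 6 other fits, the count of genes called over the whole table moved. Testing every gene with a count gave 4 higher and 37 lower, DESeq2 1 and 14, the likelihood ratio test 2 and 36; limma-voom and unscaled library totals each called 1 lower. None of the 10 Notch genes was called in any of them, and their fold changes kept their direction except MAML2, at -0.052 with limma-voom and from -0.531 to 0.407 with a shRNA line left out, where 1 line alone sets the value; the cause of the limma-voom value was not tested. HEY1 ranged from -1.33 to -1.13, with unadjusted p from 0.00628 to 0.0675. NOTCH3 (lowest unadjusted p 0.0149) and JAG1 (0.0496) were, like HEY1, under 0.05 unadjusted in the fit of every gene with a count, while the adjusted p of all 10 was at least 0.9997 in every fit. The share of all genes under 0.05 unadjusted in that fit is not given here. These unadjusted values therefore have no background to be read against. All 80 single-line log2 ratios under other scalings and prior counts stayed within their counting intervals. With either shRNA line left out (chosen after seeing the data), the members below the control numbered 9 to 10 and those above 0 to 1; of the 48 other pathway genes, 19 to 28 lay below and 20 to 29 above, as 1 line then decides. Leaving out a line leaves no residual degree of freedom, so no genes could be called. No paired analysis was possible because the control has 1 library and no replicate number that pairs it with a line. Depth limits DLL1 and HEY1 most among the 10, and the check of SNORD12B rests on at most 15 counts a library.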

Other observations

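The 7 listed pathway genes left out by the filter on low counts were DLK1, DLL4, DTX1, DTX3, HES5, HEY2 and HEYL. HEY2, a relative of HEY1 named here after its values were seen, had 12 counts in the control (0.781 CPM) and 0 in either shRNA library. Set against a floor of 3 counts a library, with the control's 12 counts taken as exact, that is at least 3.96-fold lower with the label shRNA 1 and at least 4.53-fold lower with the label shRNA 2. The exact conditional intervals, which also carry the counting error of the control, are wider and reach ratios of 0.364 and 0.318. HEYL and DLK1 had no count in the 3 libraries, and DLL4 had 2, 5 and 4 counts in the order control, label shRNA 1, label shRNA 2. NOTCH4 passed the filter with 6, 10 and 13 counts and made up 0.15% of the receptor TPM in the control.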
